A study of Oryza sativa with 12 samples.

Results

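Cellulose is made at the plasma membrane by complexes of cellulose synthase (CESA) proteins, which spin parallel glucan chains into microfibrils. Different CESA genes serve the thin primary wall of growing cells and the thick secondary wall that is laid down in fibres and xylem once growth has stopped. In rice, CESA4, CESA7 and CESA9 act together in the secondary wall, and loss of any of them makes the culm brittle. BC1 (BRITTLE CULM1) encodes a COBRA-like protein anchored at the cell surface that takes part in assembling cellulose in secondary walls, and its loss also makes the culm brittle. Transcripts of these genes were followed through the rice pedicel, the short stalk under the grain in which the abscission zone (AZ) forms. The genes were taken by locus identifier. The primary wall genes were CESA1 (LOC_Os05g08370), CESA2 (LOC_Os03g59340), CESA3 (LOC_Os07g24190), CESA5 (LOC_Os03g62090), CESA6 (LOC_Os07g14850) and CESA8 (LOC_Os07g10770). The secondary wall genes were CESA4 (LOC_Os01g54620), CESA7 (LOC_Os10g32980) and CESA9 (LOC_Os09g25490), and BC1 (LOC_Os03g30250) was kept apart from both classes. These 10 genes were found among the 35851 in the expression table, and all 10 passed the filter on low values, which left 23951 genes for testing.

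The libraries came from 2 cultivars, W517, which shatters easily, and DZ129, which has lost shattering, both labelled as wild type. From each pedicel the AZ was cut as a short piece, and the rest of the pedicel was the nonabscission zone (NAZ). The groups were therefore W517AZ, W517NAZ, DZ129AZ and DZ129NAZ, each with 3 libraries sampled at day 10, which the labels count from flowering. Values are FPKM, fragments divided by gene length and by the depth of the library, so levels can be set side by side between genes. One cultivar stands for each shattering class, so shattering and any other difference between W517 and DZ129 cannot be told apart.

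The libraries had 17119083 to 20892377 reads on genes, and replicates of a group correlated at 0.989 to 0.991 on the log2 scale. The W517NAZ libraries, at 17119083 to 18009249 reads, lay below all others, and those of DZ129NAZ had 19674604 to 20892377 reads. The pieces were checked against marker genes. The summed level of 4 photosynthesis genes was 928 to 1027 FPKM in W517AZ against 2823 to 2930 FPKM in W517NAZ, and 1023 to 1169 FPKM in DZ129AZ against 2203 to 2273 FPKM in DZ129NAZ. The 5 shattering and abscission regulators used as AZ markers were read in all 4 groups. They summed to 128 to 140 FPKM in W517AZ, against 158 to 167 FPKM in W517NAZ, and to 148 to 152 FPKM in DZ129AZ, against 164 to 170 FPKM in DZ129NAZ. LOC_Os07g03770 made up most of these sums and averaged 74.8 FPKM in W517AZ, against 132 FPKM in W517NAZ, and 82.7 FPKM in DZ129AZ, against 123 FPKM in DZ129NAZ. The other markers had higher means in the AZ of both cultivars, and the median log2 fold change of the list was 0.88 in W517 and 0.50 in DZ129. In DZ129 the log2 fold changes of the 5 markers lay between -0.57 and 0.79. LOC_Os04g57530 was near 0 there, averaging 0.078 FPKM in DZ129AZ and 0.013 FPKM in DZ129NAZ. The 15 grain storage protein genes were taken from those the study listed, on these same samples, as specific to the AZ of W517. That set leaves out genes called different between the DZ129 pieces. They summed to 447 to 491 FPKM in W517AZ, against 42.1 to 47.5 FPKM in W517NAZ. In DZ129AZ they summed to 1.93 to 3.81 FPKM, against 1.12 to 1.62 FPKM in DZ129NAZ.

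The question of the first comparison was which cellulose synthase genes differ between the AZ and the rest of the pedicel. All of them were higher in the AZ of both cultivars, and the secondary wall genes and BC1 differed most. In W517 the 3 secondary wall genes were 17.2- to 22.1-fold and BC1 22.1-fold higher in the AZ, while the 6 primary wall genes were 3.41- to 7.38-fold higher. In DZ129 the secondary wall genes were 14.9- to 15.4-fold, BC1 15.0-fold and the primary wall genes 1.53- to 5.95-fold higher in the AZ. Differentially expressed genes (DEGs) were those whose adjusted p lay below 0.05 and whose log2 fold change exceeded 1 in either direction, by limma-trend on log2(FPKM + 0.1) with Benjamini-Hochberg adjustment over all genes tested. By this rule 10 of 10 genes rose in W517AZ vs. W517NAZ, where 21.3% of all genes tested rose, and 9 of 10 rose in DZ129AZ vs. DZ129NAZ, where 18.2% of all genes tested rose. In bulk tissue, more cells of a type and more RNA per cell cannot be told apart.

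**Figure D1:**
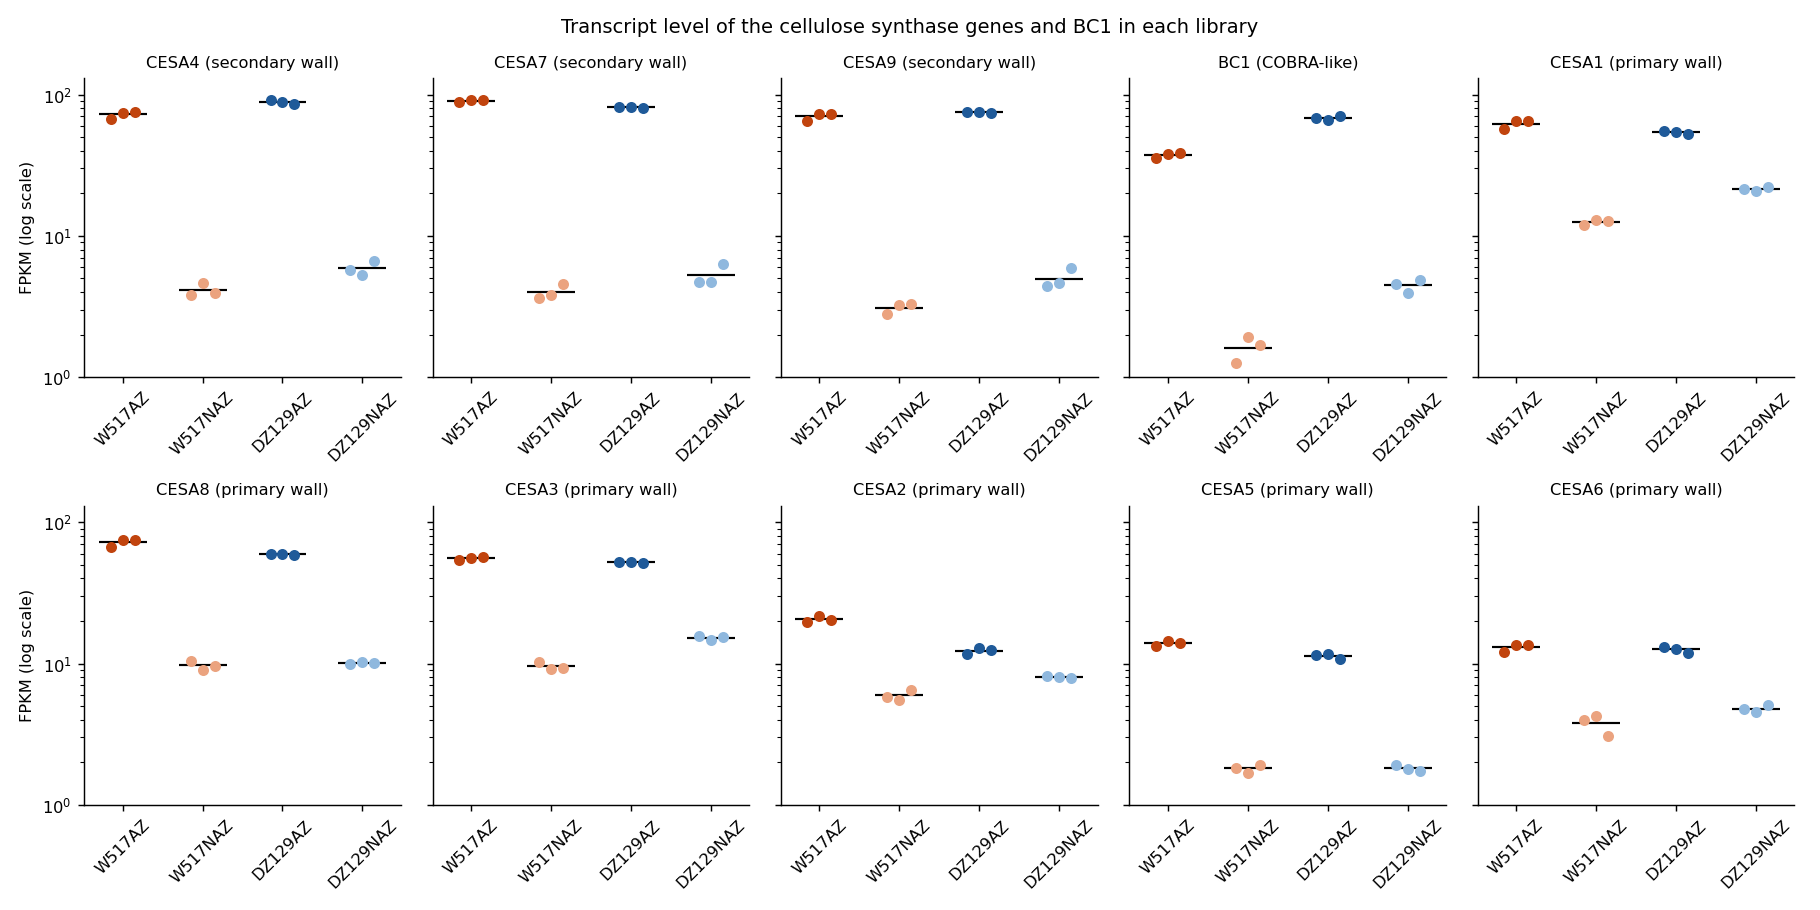
FPKM of each of the 10 genes in each library, on a log axis, with the replicates of W517AZ, W517NAZ, DZ129AZ and DZ129NAZ as points and the group mean as a bar. In every panel the AZ points lie above the NAZ points of the same cultivar, and the gap is widest for CESA4, CESA7, CESA9 and BC1.

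Among the secondary wall genes, CESA7 had 88.7, 90.9 and 92.1 FPKM in W517AZ, against 3.66, 3.84 and 4.56 FPKM in W517NAZ. Its levels were 82.0, 81.8 and 80.8 FPKM in DZ129AZ, against 4.69, 4.71 and 6.36 FPKM in DZ129NAZ. The AZ and NAZ libraries were far apart in both cultivars, and the AZ over NAZ log2 fold change was 4.47 (SE 0.10, adjusted p = 2.6e-13) in W517 and 3.95 (SE 0.10, adjusted p = 1.2e-12) in DZ129. CESA9, its partner in the same complex, had 65.1, 72.7 and 73.2 FPKM in W517AZ, against 2.80, 3.24 and 3.28 FPKM in W517NAZ. In DZ129AZ it had 75.5, 74.7 and 74.5 FPKM, against 4.40, 4.67 and 5.88 FPKM in DZ129NAZ. The corresponding log2 fold changes were 4.46 (SE 0.09, adjusted p = 1.2e-13) in W517 and 3.89 (SE 0.09, adjusted p = 6.1e-13) in DZ129.

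CESA4, the remaining subunit, had 67.4, 74.3 and 75.7 FPKM in W517AZ, against 3.81, 4.63 and 3.92 FPKM in W517NAZ. Its levels were 91.0, 89.1 and 86.0 FPKM in DZ129AZ, against 5.72, 5.29 and 6.65 FPKM in DZ129NAZ. Again no AZ library came near a NAZ library, with log2 fold changes of 4.11 (SE 0.09, adjusted p = 1.1e-13) in W517 and 3.90 (SE 0.09, adjusted p = 2.5e-13) in DZ129. BC1 had 35.5, 37.9 and 38.8 FPKM in W517AZ, against 1.25, 1.93 and 1.69 FPKM in W517NAZ. It had 68.3, 66.3 and 70.3 FPKM in DZ129AZ, against 4.59, 3.94 and 4.88 FPKM in DZ129NAZ. BC1 followed the secondary wall genes in its tissue difference, with a log2 fold change of 4.46 (SE 0.12, adjusted p = 1.1e-12) in W517 and 3.91 (SE 0.12, adjusted p = 5.8e-12) in DZ129, although its level differed between the cultivars. Its lowest values rested on 55, 89 and 77 reads in W517NAZ.

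These differences lay near the top of the whole transcriptome. In W517, 0.0668% of the genes tested had a higher AZ over NAZ log2 fold change than CESA7, 0.0710% than BC1, 0.0793% than CESA9 and 0.326% than CESA4. In DZ129 the share of genes above them lay between 1.23% for CESA7 and 1.34% for CESA9. The median log2 fold change of the secondary wall genes was 4.46 in W517 and 3.90 in DZ129, beside 0.13 and 0.09 for all genes tested in W517 and DZ129. The AZ and NAZ libraries did not overlap for any of the 10 genes in either cultivar, and the same held, in the direction of higher in the AZ, for 43.4% of all genes tested in W517 and 42.5% in DZ129. The photosynthesis and storage markers also differed between the pieces, and their part in these results was not tested. The storage genes were listed by the study as specific to the AZ of W517, which favours a small difference between the DZ129 pieces.

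The primary wall genes differed less between the pieces, and among themselves they fell into an abundant set and a low set. CESA8 had 67.2, 74.8 and 75.1 FPKM in W517AZ, against 10.4, 9.05 and 9.69 FPKM in W517NAZ, and 59.4, 60.02 and 58.9 FPKM in DZ129AZ, against 9.94, 10.2 and 10.1 FPKM in DZ129NAZ. It had the largest log2 fold change of the class in W517, 2.88 (SE 0.05, adjusted p = 5e-14), and 2.55 (SE 0.05, adjusted p = 1.9e-13) in DZ129. CESA1 had 56.8, 64.7 and 64.5 FPKM in W517AZ, against 12.0016, 12.9 and 12.7 FPKM in W517NAZ, and 55.3, 54.7 and 52.4 FPKM in DZ129AZ, against 21.5, 20.7 and 22.1 FPKM in DZ129NAZ. Its AZ levels were close in the 2 cultivars while its NAZ levels were not, and the log2 fold change was 2.30 (SE 0.05, adjusted p = 2.7e-13) in W517 and 1.33 (SE 0.05, adjusted p = 7.2e-11) in DZ129. CESA3 was similar, at 54.4, 55.6 and 56.7 FPKM in W517AZ, against 10.3, 9.19 and 9.26 FPKM in W517NAZ, and at 52.0, 52.3 and 51.9 FPKM in DZ129AZ, against 15.7, 14.6 and 15.4 FPKM in DZ129NAZ. Its log2 fold change was 2.52 (SE 0.05, adjusted p = 5e-14) in W517 and 1.76 (SE 0.05, adjusted p = 1.7e-12) in DZ129.

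The low set was CESA2, CESA5 and CESA6. CESA2 had 19.7, 21.7 and 20.3 FPKM in W517AZ, against 5.82, 5.57 and 6.47 FPKM in W517NAZ, and 11.7, 12.8 and 12.4 FPKM in DZ129AZ, against 8.12, 8.09 and 7.87 FPKM in DZ129NAZ. It was a DEG in W517, with a log2 fold change of 1.77 (SE 0.07, adjusted p = 2.9e-11). In DZ129 its log2 fold change of 0.61 (SE 0.07, adjusted p = 2.2e-06) did not reach the limit of 1, the one exception among the 10 genes. CESA5 lay between 13.4 and 14.3 FPKM in W517AZ, against 1.69 to 1.92 FPKM in W517NAZ, and between 10.7 and 11.8 FPKM in DZ129AZ, against 1.73 to 1.93 FPKM in DZ129NAZ. With log2 fold changes of 2.87 in W517 and 2.57 in DZ129 it matched CESA8 in its tissue difference at a far lower level. CESA6 lay between 12.1 and 13.6 FPKM in W517AZ, against 3.05 to 4.28 FPKM in W517NAZ, and between 11.9 and 13.1 FPKM in DZ129AZ, against 4.54 to 5.06 FPKM in DZ129NAZ, with log2 fold changes of 1.78 in W517 and 1.37 in DZ129. The median log2 fold change of the primary wall genes was 2.41 in W517 and 1.57 in DZ129. In both cultivars every secondary wall gene had a larger log2 fold change than every primary wall gene.

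The order of levels changed between the pieces. In W517AZ CESA7 stood highest at 90.5 ± 1.7 FPKM (SD, n = 3), followed by CESA4, CESA8 and CESA9, whose libraries overlapped at 72.5 ± 4.4, 72.4 ± 4.5 and 70.3 ± 4.5 FPKM (SD, n = 3 each). In DZ129AZ the secondary wall genes took the first 3 places without overlap, CESA4 at 88.7 ± 2.5 FPKM, CESA7 at 81.5 ± 0.65 FPKM and CESA9 at 74.9 ± 0.54 FPKM (SD, n = 3 each), with BC1 next at 68.3 ± 2.0 FPKM. BC1 stood below CESA3 in W517AZ, at 37.4 ± 1.7 FPKM (SD, n = 3). In the NAZ of both cultivars a primary wall gene, CESA1, stood highest, at 12.5 ± 0.47 FPKM in W517NAZ and 21.4 ± 0.74 FPKM in DZ129NAZ (SD, n = 3 each). CESA4, CESA7, CESA9 and CESA6 took 4 adjacent places in both NAZ groups, and each overlapped the next in order of mean. The lowest 2 genes of W517NAZ, CESA5 at 1.81 ± 0.11 FPKM and BC1 at 1.62 ± 0.34 FPKM (SD, n = 3 each), overlapped, whereas in DZ129NAZ BC1, at 4.47 ± 0.48 FPKM, stood above CESA5, at 1.82 ± 0.10 FPKM (SD, n = 3 each).

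The second comparison was between the cultivars within each piece. In W517AZ vs. DZ129AZ none of the 10 genes was a DEG, where 27.1% of all genes tested were. With limma-trend, 6 of the 10 had an adjusted p below 0.05 without the limit on size, beside 69.8% of all genes tested, the same 6 had an unadjusted p below 0.05, and limma voom on recovered reads also called 0 DEGs. The largest difference was in BC1, with a log2 fold change of -0.87 (SE 0.12, adjusted p = 2.4e-05), a 1.82-fold lower level in W517AZ than in DZ129AZ. CESA2 went the other way, with a log2 fold change of 0.73 (SE 0.07, adjusted p = 3.8e-07). The other primary wall genes had log2 fold changes of 0.05 to 0.29, of which those of CESA1 (adjusted p = 0.0053), CESA5 (adjusted p = 0.0075) and CESA8 (adjusted p = 0.00045) passed the adjusted p, and those of CESA3 (adjusted p = 0.093) and CESA6 (adjusted p = 0.68) did not. CESA3 passed under median-ratio scaling (adjusted p = 0.012), quantile normalization (0.0018), separate models (0.032) and voom (0.010). Of the secondary wall genes, CESA4 had a log2 fold change of -0.29 (SE 0.09, adjusted p = 0.0081), while CESA7 at 0.15 (SE 0.10, adjusted p = 0.20) and CESA9 at -0.09 (SE 0.09, adjusted p = 0.39) did not pass, CESA7 passing with separate models (0.0025) and voom (0.0011). The libraries of W517AZ and DZ129AZ did not overlap for 9 of the 10 genes, CESA6 being the exception, beside 73.4% of all genes tested.

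In W517NAZ vs. DZ129NAZ, BC1 was the 1 DEG of the 10 genes and fell in W517NAZ, where 17.7% of all genes tested fell. Its log2 fold change was -1.42 (SE 0.12, adjusted p = 1.7e-07), a 2.68-fold lower level in W517NAZ. Under quantile normalization this value was -0.88 (adjusted p = 1.2e-05), short of the limit on size. Without that limit, 8 of the 10 genes had an adjusted p below 0.05 and a negative log2 fold change, beside 39.7% of all genes tested. CESA1 had a log2 fold change of -0.77 (SE 0.05, adjusted p = 2e-08), CESA3 of -0.67 (SE 0.05, adjusted p = 3e-08) and CESA9 of -0.66 (SE 0.09, adjusted p = 3.1e-05). CESA4 at -0.50, CESA2 at -0.43, CESA7 at -0.37 and CESA6 at -0.35 followed, and under quantile normalization none of these 4 passed, with CESA4 at -0.14 (adjusted p = 0.15), CESA2 at -0.15 (0.052), CESA7 at -0.0021 (0.99) and CESA6 at 0.033 (0.77). That setting left 4 of the 8 negative values past the adjusted p, those of CESA1, CESA3, CESA9 (-0.23) and BC1, and CESA5 passed with a positive value (0.48). CESA5 at -0.01 (adjusted p = 0.92) and CESA8 at -0.05 (adjusted p = 0.38) had overlapping libraries, and both were above 0 when the libraries were scaled by median ratios or quantile normalized. The libraries did not overlap for the other 8 genes, beside 41.1% of all genes tested that were lower without overlap. The secondary wall genes had a median of -0.50 and the primary wall genes of -0.39, against -0.07 over all genes tested. Quantile normalization itself moved the median of all genes in this comparison to 0.12.

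**Figure D2:**
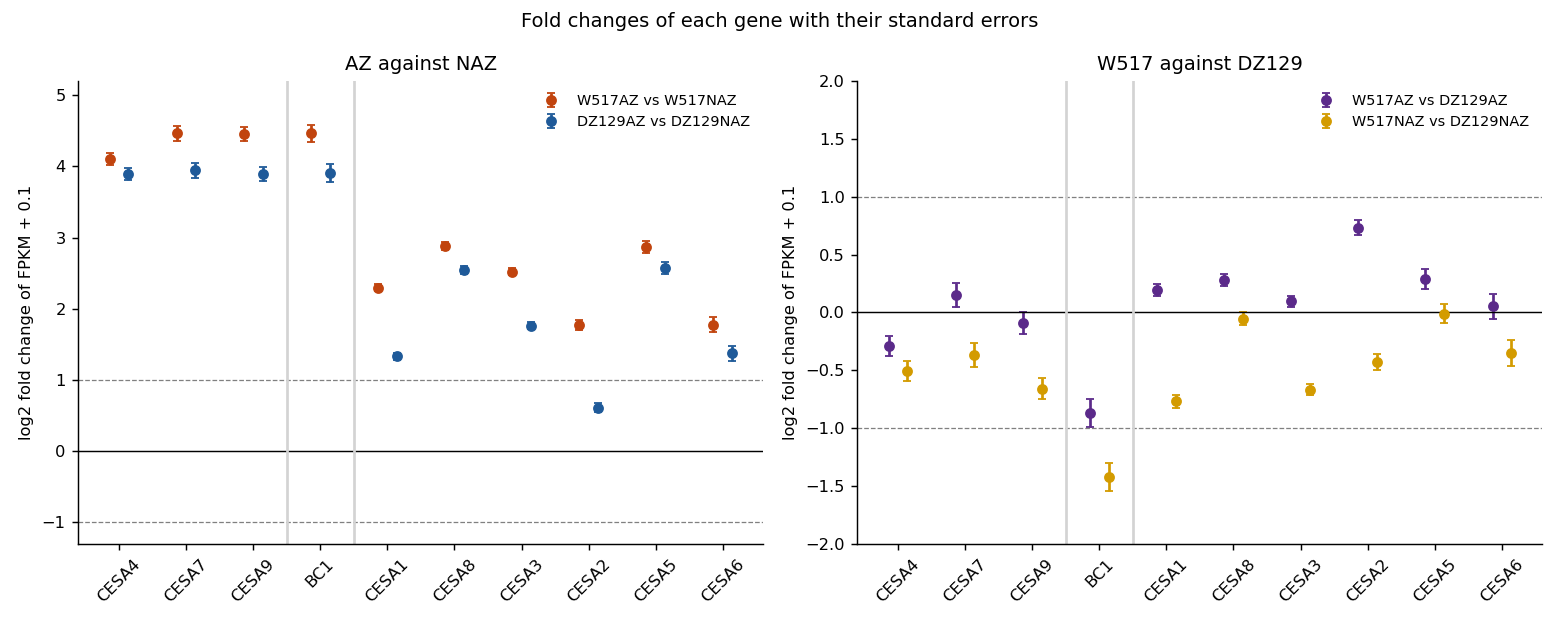
Log2 fold changes on log2(FPKM + 0.1) with their standard errors for each gene, AZ over NAZ in each cultivar on the left and W517 over DZ129 in each piece on the right, with dashed lines at the limit of 1. CESA4, CESA7, CESA9 and BC1 lie between 3.89 and 4.47 on the left, above all primary wall genes, and on the right BC1 in the NAZ, at -1.42, is past the limit.

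Whether the tissue difference was the same in both cultivars was tested by the interaction, the AZ over NAZ log2 fold change of W517 less that of DZ129. It was positive in all 10 genes, except that CESA4 and CESA5 were below 0 under quantile normalization, and it passed an adjusted p of 0.05 in 8 of 10 genes, beside 21.4% of all genes tested with a positive value. The largest values belonged to primary wall genes, CESA2 at 1.16 (SE 0.09, adjusted p = 7.1e-07), CESA1 at 0.96 (SE 0.07, adjusted p = 4.9e-07) and CESA3 at 0.76 (SE 0.07, adjusted p = 1.5e-06). CESA9 at 0.56 (SE 0.13, adjusted p = 0.0040), BC1 at 0.56 (SE 0.17, adjusted p = 0.018) and CESA7 at 0.52 (SE 0.15, adjusted p = 0.011) also passed, as did CESA6 at 0.40 (SE 0.15, adjusted p = 0.049) and CESA8 at 0.34 (SE 0.08, adjusted p = 0.0034). CESA5 at 0.30 (SE 0.12, adjusted p = 0.057) and CESA4 at 0.21 (SE 0.12, adjusted p = 0.18) did not pass. Under quantile normalization 4 of 10 passed, those of CESA1, CESA2, CESA3 and CESA8. The call of CESA6 was also lost in 9 of the 12 fits that each left out 1 library. For CESA2 both cultivar comparisons, which share no library, lay on opposite sides of 0, at 0.73 between the AZ groups and at -0.43 between the NAZ groups. For CESA1 the larger part of the interaction stood in the NAZ, at -0.77 against 0.19 in the AZ.

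**Figure D3:**
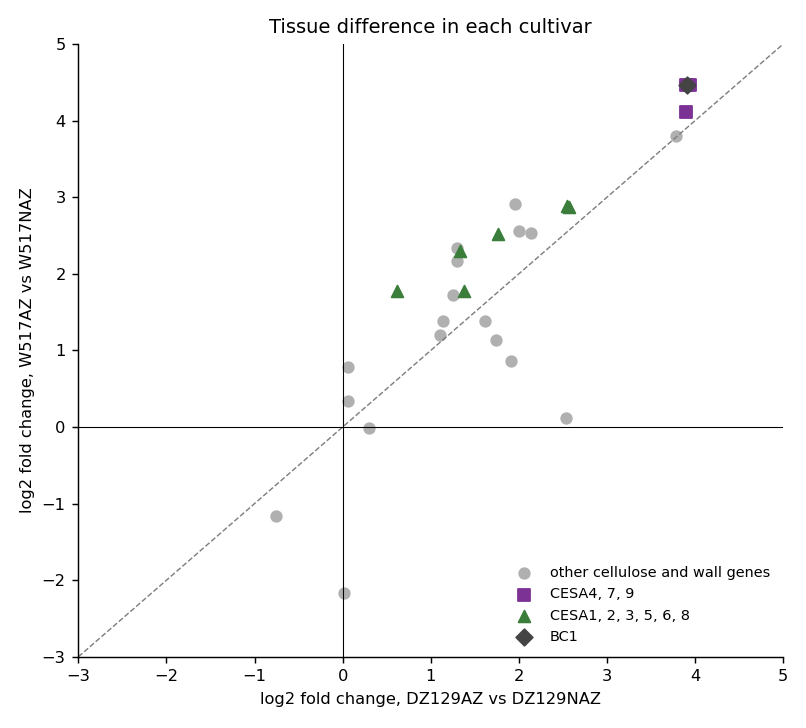
AZ over NAZ log2 fold change on log2(FPKM + 0.1) in W517 (vertical) against that in DZ129 (horizontal) for the secondary wall genes (squares), the primary wall genes (triangles), BC1 (diamond) and 18 other loci of cellulose and wall formation (grey circles). The dashed line marks equal values, and all 10 genes of interest lie above it, CESA2 at 1.77 in W517 and 0.61 in DZ129.

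The balance between the classes was described within each library, without a test, since it is a score over chosen genes. CESA4, CESA7 and CESA9 together made up 49.3% to 49.7% of the summed CESA FPKM in W517AZ, against 18.8% to 21.5% in W517NAZ. In DZ129 they made up 54.6% to 55.0% in DZ129AZ, against 19.3% to 23.3% in DZ129NAZ. So the secondary wall share was higher in the AZ of both cultivars, the 2 NAZ groups overlapped, and the 2 AZ groups did not, with W517AZ below DZ129AZ. Summed over the secondary wall genes the level was 233 ± 11 FPKM in W517AZ and 245 ± 3.6 FPKM in DZ129AZ, while the primary wall genes summed to 237 ± 12 FPKM in W517AZ and 202 ± 3.3 FPKM in DZ129AZ (SD, n = 3 each). The secondary sums of single libraries came close, at 221 to 241 FPKM in W517AZ and 241 to 249 FPKM in DZ129AZ, and the primary sums were further apart, at 224 to 245 FPKM in W517AZ and 198 to 204 FPKM in DZ129AZ. In the NAZ the secondary wall genes summed to 11.2 ± 0.85 FPKM in W517NAZ and 16.1 ± 2.4 FPKM in DZ129NAZ, and the primary wall genes to 43.4 ± 0.87 FPKM in W517NAZ and 61.4 ± 1.3 FPKM in DZ129NAZ (SD, n = 3 each).

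As the mean log2(FPKM + 0.1) of the secondary wall genes less that of the primary wall genes, the balance was 1.30 ± 0.017 in W517AZ, against -0.69 ± 0.14 in W517NAZ, and 1.66 ± 0.022 in DZ129AZ, against -0.56 ± 0.20 in DZ129NAZ (SD, n = 3 each). The difference in this balance was 1.99 for W517AZ over W517NAZ and 2.21 for DZ129AZ over DZ129NAZ. Between the cultivars it was -0.35 in the AZ, many times the SD of either AZ group, and -0.13 in the NAZ, within the SD of both NAZ groups. Reads on the 9 CESA genes were 0.175% to 0.190% of all reads on genes in W517AZ, against 0.0224% to 0.0227% in W517NAZ, and 0.171% to 0.176% in DZ129AZ, against 0.0310% to 0.0335% in DZ129NAZ.

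Within the secondary wall genes the leading member differed between the AZ groups. CESA7 contributed 38.2% to 40.1% of their summed FPKM in W517AZ, against 33.0% to 33.5% in DZ129AZ. CESA4 contributed 30.5% to 31.4% in W517AZ, against 35.6% to 36.6% in DZ129AZ. The share of CESA9 overlapped, at 29.4% to 30.5% in W517AZ and 30.4% to 30.9% in DZ129AZ. In the NAZ groups, where each gene rested on 177 to 471 reads per library, CESA4 and CESA7 overlapped in W517NAZ, at 33.4% to 39.5% and 32.8% to 38.7%. Among the primary wall genes, CESA8 contributed 30.04% to 30.8% of the class in W517AZ, against 21.2% to 23.5% in W517NAZ, and 29.3% to 29.7% in DZ129AZ, against 16.0% to 17.0% in DZ129NAZ. CESA2 ran the other way between the pieces, at 8.30% to 8.86% in W517AZ, against 13.04% to 15.0% in W517NAZ, and at 5.77% to 6.29% in DZ129AZ, against 12.6% to 13.5% in DZ129NAZ. The mean shares of CESA1 and CESA6 were also lower in the AZ of both cultivars.

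BC1 relative to the secondary wall genes separated the cultivars in both pieces. Its FPKM was 47.8% to 48.3% of the mean FPKM of CESA4, CESA7 and CESA9 in W517AZ, against 81.0% to 87.4% in DZ129AZ. In the NAZ it was 36.6% to 49.4% in W517NAZ, against 77.5% to 93.0% in DZ129NAZ. The W517 and DZ129 libraries did not overlap in this ratio, while the AZ and NAZ libraries of each cultivar did. The lowest value, 36.6%, came from the W517NAZ library in which BC1 had 55 reads.

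**Figure D4:**
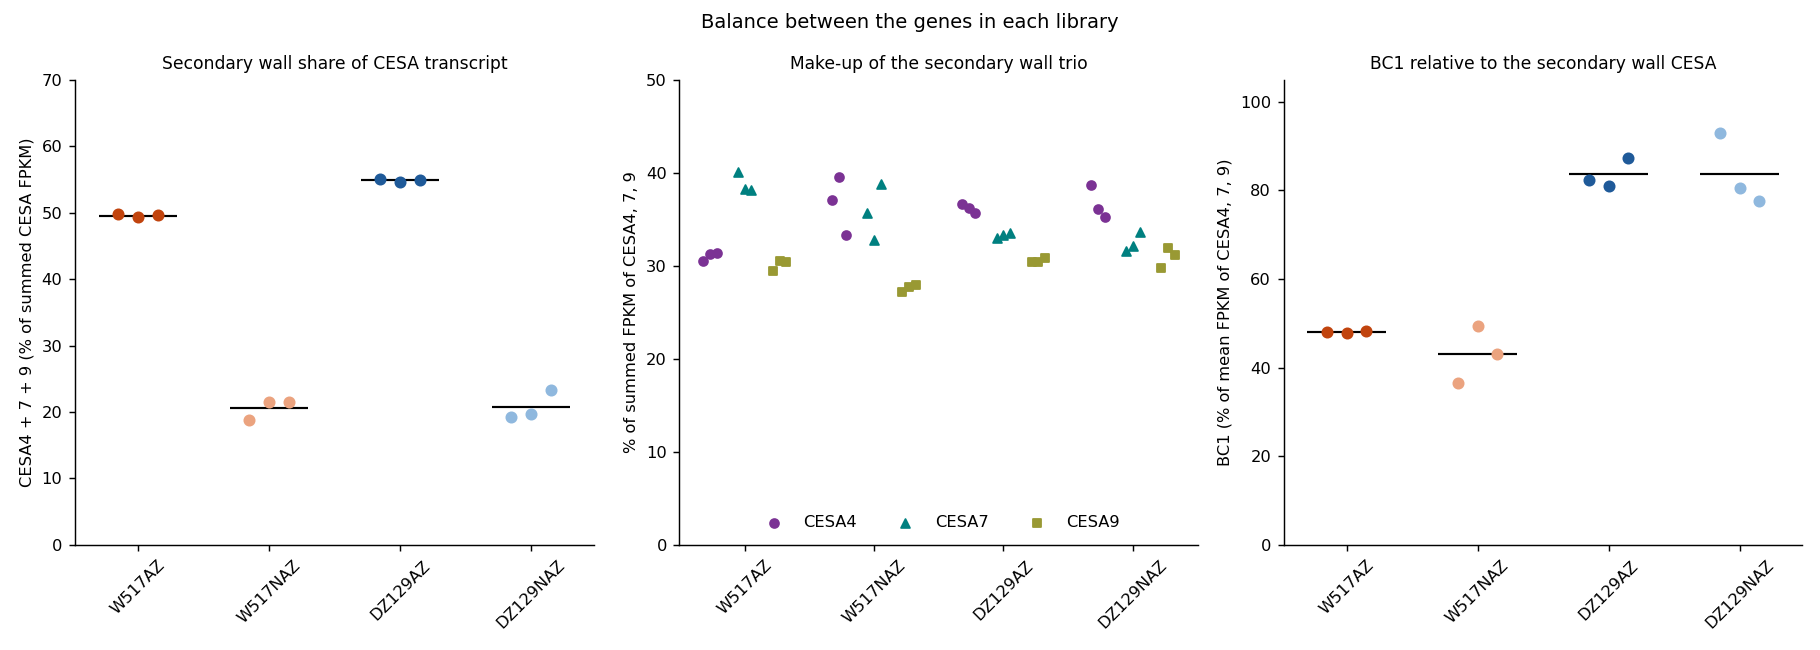
Per library, the share of CESA4, CESA7 and CESA9 in the summed CESA FPKM (left), the share of each of these genes in their own sum (middle) and BC1 as a percentage of their mean FPKM (right), with group means as bars in the left and right panels. The secondary wall share lies between 49.3% and 55.0% in the AZ libraries and between 18.8% and 23.3% in the NAZ libraries, CESA7 leads in W517AZ and CESA4 in DZ129AZ, and BC1 is between 36.6% and 49.4% in W517 and between 77.5% and 93.0% in DZ129.

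A list of 23 other loci of cellulose and wall formation was set beside these genes. It was chosen from general knowledge, but with earlier results of these data known. Of the 23 loci, 18 were tested, among them LOC_Os03g30260, which the study had listed from these samples and which enters the counts below. In W517AZ vs. W517NAZ, 11 rose and 2 fell, where 21.3% of all genes tested rose and 12.4% fell, and their median log2 fold change was 1.29, beside 0.13 over all genes. In DZ129AZ vs. DZ129NAZ 13 rose and 0 fell, where 18.2% rose and 9.84% fell, and the median was 1.30, beside 0.09 over all genes. In W517AZ vs. DZ129AZ 3 rose and 1 fell, where 10.6% rose and 16.4% fell, and in W517NAZ vs. DZ129NAZ 4 rose and 1 fell, where 10.0% rose and 17.7% fell. The interaction passed with a positive value in 8 of them and with a negative value in 6, beside 21.4% and 22.0% of all genes tested. LOC_Os08g02300 came closest to the secondary wall genes, with log2 fold changes of 3.80 in W517 and 3.78 in DZ129. LOC_Os03g30260, another COBRA-like locus whose number follows that of BC1 and which the study had listed from these samples, did not share the pattern of BC1, averaging 0.187 FPKM in W517AZ, against 1.18 FPKM in W517NAZ, and 0.0125 FPKM in DZ129AZ, against 0.0116 FPKM in DZ129NAZ.

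The genes whose levels ran most like these were sought over the 12 libraries by Pearson's correlation on log2(FPKM + 0.1), as a description, since the libraries fall into 4 groups. LOC_Os06g30950 was most like the mean profile of the secondary wall genes (r = 0.9993), averaging 58.9 FPKM in W517AZ, against 3.49 FPKM in W517NAZ, and 67.2 FPKM in DZ129AZ, against 5.39 FPKM in DZ129NAZ. For the primary wall genes it was LOC_Os09g32080 (r = 0.9984), at 45.9 FPKM in W517AZ, against 6.003 FPKM in W517NAZ, and 35.6 FPKM in DZ129AZ, against 9.12 FPKM in DZ129NAZ, a locus that is also on the list of wall genes. LOC_Os08g33670 was most like BC1 (r = 0.9984), at 13.2 FPKM in W517AZ, against 0.841 FPKM in W517NAZ, and 21.6 FPKM in DZ129AZ, against 1.99 FPKM in DZ129NAZ. BC1 itself had r = 0.9799 with the secondary wall profile and r = 0.9619 with the primary wall profile, and CESA2 had r = 0.8993 with the secondary wall profile, the lowest of the 10 genes. The profiles did not fully separate the classes. CESA5 had r = 0.9899 with the secondary and 0.9872 with the primary wall profile, and CESA8 had 0.9915 and 0.9892. CESA1, CESA2, CESA3 and CESA6 had the higher r with the primary wall profile. The files do not pair these locus identifiers with gene names.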

How the data were processed

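RNA-seq covered the AZ and NAZ of W517 and DZ129, 4 groups of 3 libraries. Reads of stranded mRNA libraries were cleaned with Trimmomatic and aligned by HISAT2 to MSU-RGAP 7.0. The study states that Cufflinks gave the FPKM and HTSeq the read counts. The authors deposited FPKM for 35851 genes in 12 columns, 1 per library. How reads shared by similar CESA genes were handled, and the strand setting of the counting, are not given in the sources used here. It is not stated whether replicates were separate plants, so p-values measure the spread between these samples.

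The 23951 genes that reached 0.5 FPKM in 3 or more libraries entered 1 limma-trend model (limma 3.58.1, R 4.3.3) of the 4 groups on log2(FPKM + 0.1), with Benjamini-Hochberg adjustment over all of them. A fold change on this scale understates the change of low genes. DEGs combined an adjusted p under 0.05 with a log2 fold change over 1 in size. The interaction had no limit on size. The FPKM were whole reads divided by gene length and library total: with a tolerance of 0.01 reads, whole reads were recovered for 100% of genes, and these gave the depth and an alternative test by limma voom. Intervals of levels are SDs over libraries. Tables and figures were made in Python 3.11.15 (matplotlib 3.10.9, numpy 2.4.6, pandas 2.3.3, scipy 1.17.1), and the fit was tested on simulated data.

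The genes named are the 10 members, the list of 23 wall loci and the loci most like each class over the 12 libraries. The members, lists and tests were chosen with earlier results of these data known. From the list and the loci most like each class, the single locus closest in each case is named, with a COBRA-like locus that was chosen after its values were seen. RefSeq holds no such locus identifiers and was searched by gene name. It had a gene of each of the 9 CESA names, on the chromosome of the locus number used here. For BC1 it held 2 genes of that name, and BC1 did not pass this check of the chromosome. The search does not match names to single loci. Alternatives were separate models, voom, quantile normalization, median-ratio scaling, the replicate number as a block, pseudocounts of 0.5 or 1, a filter at 1 FPKM or none, and leaving out each library in turn.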

Additional observations from a re-analysis of the deposited data

Results flagged for a closer look

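The AZ over NAZ difference of W517 and that of DZ129 were unequal by the interaction test of limma-trend (adjusted p below 0.05) in 8 of the 10 genes. All 8 values were positive. Of all genes tested, 21.4% passed with a positive value and 22.0% with a negative value. On the log2 scale, W517 less DZ129, the values were 1.16 for CESA2, 0.96 for CESA1, 0.76 for CESA3, 0.56 for CESA9, 0.56 for BC1, 0.52 for CESA7, 0.40 for CESA6 and 0.34 for CESA8. In each of the 8 genes the AZ and NAZ libraries were apart in both cultivars and the AZ was higher, so the inequality was one of size and not of direction. Of the storage protein genes, 13 of 14 tested passed the interaction test with a positive value, beside the same 21.4% of all genes tested. The way they were listed favours this, since the study left out genes called different between the DZ129 pieces. The part of the storage genes in the values of the 8 genes was not tested. Groups of 3 libraries were not tested for outlying libraries.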

How the results depend on the processing

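The tissue comparisons kept 10 of 10 DEGs in W517 and 9 of 10 in DZ129 under every alternative run, W517AZ vs. DZ129AZ kept 0, and W517NAZ vs. DZ129NAZ kept 1, except under quantile normalization. Quantile normalization left 0 DEGs in W517NAZ vs. DZ129NAZ (BC1 at -0.88), 4 of 10 interactions, and an interaction of the balance between the classes of -0.38, where the reported value is -0.22 and the other settings on all libraries gave -0.26 to -0.22. It moved the median of all genes from 0.13 to -0.04 in W517AZ vs. W517NAZ, from -0.07 to 0.09 in W517AZ vs. DZ129AZ and from -0.07 to 0.12 in W517NAZ vs. DZ129NAZ. It turned the sign in W517NAZ vs. DZ129NAZ for CESA5 (0.48, adjusted p = 0.00016), CESA6 (0.033) and CESA8 (0.13), and in the interaction for CESA5 (-0.043) and CESA4 (-0.067), and it ended the interaction calls of BC1 (0.086), CESA7 (0.22), CESA9 (0.22) and CESA6 (0.15). Median-ratio scaling turned CESA5 (0.064) and CESA8 (0.022) in W517NAZ vs. DZ129NAZ. Without the limit on size, the 8 negative values of W517NAZ vs. DZ129NAZ with an adjusted p below 0.05 became 4 under quantile normalization, and 7 with separate models. In W517AZ vs. DZ129AZ, where 6 genes passed without that limit, 7 passed under either scaling and 8 with separate models or voom. The causes were not tested.

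The interaction of CESA6 was also lost with no filter (adjusted p = 0.072) and median-ratio scaling (0.060), that of BC1 with a pseudocount of 1 (0.17), and that of CESA5 was gained with pseudocounts of 0.5 (0.036) and 1 (0.025) and with no filter (0.048). Deviations of same-numbered libraries correlated at -0.043 to 0.018 over 18 pairs, and those of other numbers at -0.032 to 0.041 over 36 pairs. These pairs include libraries of different cultivars. Whether same-numbered AZ and NAZ libraries came from the same plants is not stated, so pairing remains unknown. With the replicate number as a block, 7 of 10 interactions passed, CESA6 having an adjusted p of 0.063, and no other call changed.

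Leaving out each library gave 7 to 8 interactions. CESA5 in W517NAZ vs. DZ129NAZ ranged from -0.050 to 0.035, and it was above 0 without DZ129NAZ replicate 1 (0.030) and without W517NAZ replicate 2 (0.035). The interaction of CESA6 was lost in 9 of the 12 fits, and that of CESA5 was gained in 2, those without DZ129NAZ replicate 3 (adjusted p = 0.048) and without W517NAZ replicate 3 (0.040). The balance between the classes ranged from 1.91 to 2.03 for W517AZ over W517NAZ, from 2.14 to 2.33 for DZ129AZ over DZ129NAZ, from -0.37 to -0.34 for W517AZ over DZ129AZ, from -0.20 to -0.02 for W517NAZ over DZ129NAZ and from -0.34 to -0.15 for the interaction. Depth limits BC1 in W517NAZ most, with 55 to 89 reads per library.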
